A study of Mus musculus with 6 samples.

Results

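The enzymes that make eicosanoids and 1 leukotriene receptor were described in RNA of CD11b+ cells, a preparation enriched for microglia, from mouse brain. The 10 genes were chosen by symbol among the 19225 genes with a value: *Pla2g4a*, *Alox5*, *Alox5ap*, *Lta4h*, *Ltc4s*, *Cysltr1*, *Ptgs1*, *Ptgs2*, *Hpgds* and *Tbxas1*, and each of the 10 had 1 row. The 6 libraries, 1 per mouse, came from stress-naïve male mice of 3 months by the labels, the methods giving a slightly younger range for the study. 3 libraries are labelled *Cnr1*+/+ (C57BL6/J, wt/wt) and 3 *Cnr1*-/- (*Cnr1* tm1Zim, d/d), a constitutive line in which a neomycin cassette disrupts the coding region of the CB1 receptor gene; by the methods both genotypes share the C57BL/6J background. The mice were littermates by the methods, all were perfused with PBS, and no group was stressed or treated. The genotype labels are shortened to +/+ and -/- for values, and the comparison asks which transcripts differ in microglia of mice without CB1.

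Eicosanoids are short-lived lipid mediators made from arachidonic acid, which cytosolic phospholipase A2 (*Pla2g4a*) cuts from membrane phospholipids. In the leukotriene branch, 5-lipoxygenase (*Alox5*) and its membrane partner FLAP (*Alox5ap*) form leukotriene A4, which *Lta4h* hydrolyses to leukotriene B4, a neutrophil attractant, and *Ltc4s* conjugates to leukotriene C4, whose products act on *Cysltr1*. In the prostanoid branch, the cyclooxygenases COX-1 (*Ptgs1*) and COX-2 (*Ptgs2*) form prostaglandin H2, which *Hpgds* turns into prostaglandin D2 and *Tbxas1* into thromboxane A2. COX-1 and *Hpgds* are known as constitutive genes of microglia, and COX-2 as a gene induced by inflammatory stimuli.

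Values are cpm, the share of a library's reads after TMM scaling, from reads of the 3′ ends of polyadenylated transcripts. Such libraries give about 1 fragment per transcript whatever its length, so levels of different genes were compared as cpm without division by length. The effective depth, which is derived from the value of 1 read and so includes the TMM factor, lay between 7708793 and 10723826 reads per library, and 3 reads amounted to at most 0.389 cpm. The 12 microglia markers, *P2ry12*, *Tmem119* and *Cx3cr1* among them, summed to between 16480 and 19050 cpm per library. *Cnr1* had no reads in any +/+ library and stood at 1.41, 1.21 and 1.79 cpm under the -/- label, from 13, 13 and 15 reads, which goes against the labels. The paper describes CB1 as hardly expressed by microglia, and the mice as genotyped by PCR. Whether the 3′ tags under the -/- label lie outside the disrupted part was not tested, and that would not bear on the absence of reads under the +/+ label. All directions below are therefore those of the labels, which these data do not check. The library labelled *Cnr1*-/- replicate 2 stood apart, with 4075 cpm of 10 neutrophil markers against 267 to 526 cpm in the other libraries, 2330 cpm of 5 erythrocyte markers against 136 to 237 cpm, and 112 cpm of 6 monocyte markers against 28.2 to 34.6 cpm.

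The 10 genes spanned more than 3 orders of magnitude. *Hpgds* (chromosome 6 of mm10, 65117293 to 65144908, 6 exons) was the most abundant on average, with 369, 449 and 404 cpm under the +/+ label and 392, 402 and 379 cpm under the -/- label. It ranked 96 among all listed genes by mean level. *Ptgs1* (chromosome 2, 36230426 to 36252272, 11 exons) followed at rank 105, with 334, 370 and 360 cpm and 396, 408 and 390 cpm in the same order. *Ltc4s* (chromosome 11, 50236461 to 50238616, 5 exons) had a mean of 194 cpm and *Alox5ap* (chromosome 5, 149264767 to 149288153) one of 134 cpm. Genes of both branches thus stood near the top. *Tbxas1* (chromosome 6, 38875404 to 39084585) had a mean of 101 cpm, *Cysltr1* (chromosome X, 106574346 to 106603679) one of 39.4 cpm and *Pla2g4a* (chromosome 1, 149829618 to 149961290) one of 15.3 cpm. *Lta4h* (chromosome 10, 93453411 to 93484875) and *Alox5* (chromosome 6, 116410077 to 116461178), which use and supply leukotriene A4, lay at 11.4 and 11.1 cpm. *Ptgs2* (chromosome 1, 150100031 to 150108227) was the exception at 0.301 cpm.

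**Figure D1:**
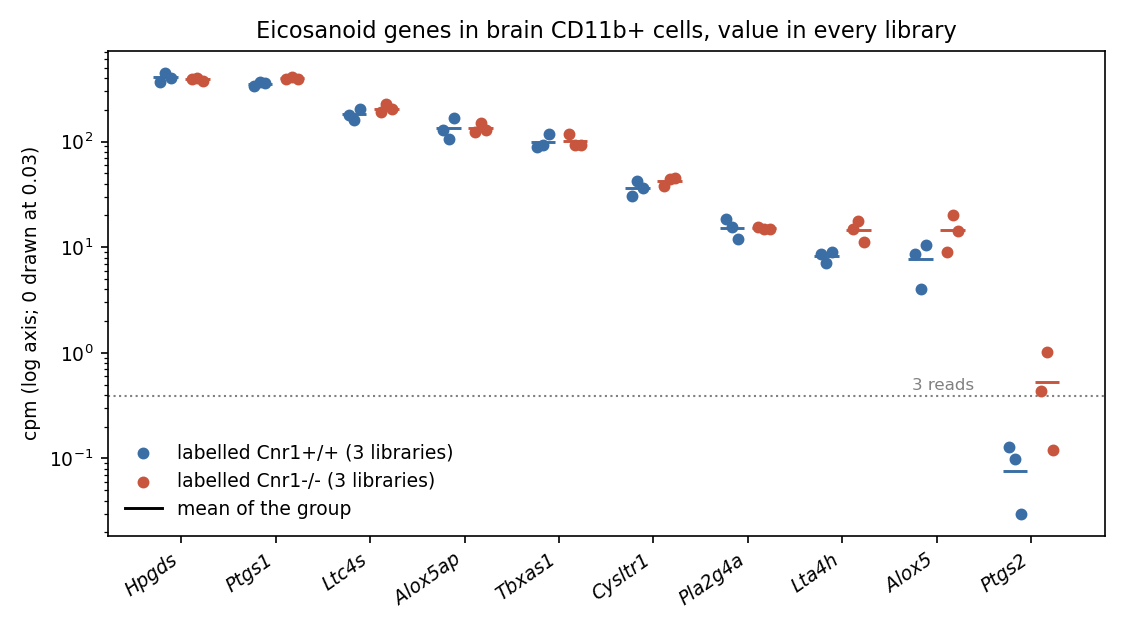
Values of the 10 genes (cpm, log axis) in every library, points for the 3 libraries of each label and bars for group means, ordered by mean level. *Hpgds* and *Ptgs1* lie at 334 to 449 cpm, *Ptgs2* lies at or below 1.03 cpm, and the dotted line marks 3 reads in the shallowest library (0.389 cpm).

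In this order some neighbours were not separated by their spread. *Hpgds* exceeded *Ptgs1* in 3 of the 6 libraries and *Lta4h* exceeded *Alox5* in 2 of 6, whereas *Pla2g4a* exceeded *Lta4h* in 5 of 6. The ranges of *Ltc4s* and *Alox5ap*, and of *Alox5ap* and *Tbxas1*, overlapped, although the first of each pair was higher within all 6 libraries. The ranges of *Ptgs1* and *Ltc4s*, *Tbxas1* and *Cysltr1*, *Cysltr1* and *Pla2g4a*, and *Alox5* and *Ptgs2* did not overlap. *Hpgds* and *Ptgs1* together made up most of the summed level, with shares of 29.2% to 36.0% and 27.3% to 30.5% per library, while *Alox5* held 0.320% to 1.47%.

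The windows around the start sites of the 3 most abundant genes are shown because each holds the letters AGGAAGT, which contains the GGAA core of sites bound by ETS-family factors such as PU.1, the lineage factor of macrophages and microglia. The sequences are those of RefSeq on GRCm38.p6, the build of the files, from 250 bases before to 50 after the start, in the direction of the gene, with the match in capitals. They lie at chr6:65144681-65144980 on the minus strand, chr2:36230176-36230475 on the plus strand and chr11:50238483-50238782 on the minus strand.
Hpgds: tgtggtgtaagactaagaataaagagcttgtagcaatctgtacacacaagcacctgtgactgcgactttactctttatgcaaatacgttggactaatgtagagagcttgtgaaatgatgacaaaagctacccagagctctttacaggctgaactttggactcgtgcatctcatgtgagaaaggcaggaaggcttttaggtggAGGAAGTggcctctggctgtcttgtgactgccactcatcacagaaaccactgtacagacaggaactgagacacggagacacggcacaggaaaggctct
Ptgs1: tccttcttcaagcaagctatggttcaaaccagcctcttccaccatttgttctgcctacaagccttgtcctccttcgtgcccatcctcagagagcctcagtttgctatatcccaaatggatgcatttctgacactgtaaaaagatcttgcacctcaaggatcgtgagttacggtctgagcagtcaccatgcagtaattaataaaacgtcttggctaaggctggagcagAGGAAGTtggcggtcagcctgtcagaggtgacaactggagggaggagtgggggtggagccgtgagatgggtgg
Ltc4s: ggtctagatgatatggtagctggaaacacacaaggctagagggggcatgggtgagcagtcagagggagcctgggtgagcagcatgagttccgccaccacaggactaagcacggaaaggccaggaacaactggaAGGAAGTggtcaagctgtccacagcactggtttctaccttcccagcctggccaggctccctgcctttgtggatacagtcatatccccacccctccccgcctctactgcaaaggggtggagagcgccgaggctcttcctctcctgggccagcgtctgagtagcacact
The match began 48 bases before the RefSeq start in *Hpgds*, 23 in *Ptgs1* and 117 in *Ltc4s*. The RefSeq start of *Ptgs1* is the GENCODE gene start given above, but that of *Hpgds* lies 178 bases and that of *Ltc4s* 84 bases inside the GENCODE gene. Against the GENCODE genes, the match of *Hpgds* thus lies within the gene and those of *Ptgs1* and *Ltc4s* before it. Of the 8 genes with a window, 4 held AGGAAGT on either strand in at least 1 window. Counted by single windows rather than genes, 9.35% of all 32851 held it. The gene beside the 3 shown was *Pla2g4a*, in 1 of its 2 windows, at a start 38851 bases inside the GENCODE gene. The longer GAGGAAGT, which contains it, was held by *Hpgds* and *Ptgs1* and by 3.20% of all windows. The letters were chosen after the windows were read, so these counts are no test of enrichment, and a match is a description of the sequence.

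Differences between the labels were tested with limma on log2 (cpm + 0.1) over 6659 genes, those whose mean reached 10 cpm, which included 9 of the 10 genes and left out *Ptgs2*. None of the 9 met the study's thresholds with limma or limma voom, adjusted p below 0.1 and fold above 1.5, which 0.0901% of all genes tested met. 2 of the 9, *Lta4h* and *Alox5*, had a nominal p under 0.05 and were higher under the -/- label, where 6.02% of all genes had such a p and 5.09% were also higher. Both passed the minimum mean only through these libraries, so the count among 9 is no support by itself. Without a filter, *Lta4h* and *Alox5* again were the 2 of the 10 genes with such a p, against 5.17% of 19225 genes in either direction and 3.68% that were higher. The median log2 fold change of the 9 was 0.17, beside 0.084 over all genes tested.

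*Lta4h*, the enzyme of leukotriene B4 synthesis, had 8.56, 7.08 and 9.04 cpm under the +/+ label and 14.8, 17.6 and 11.3 cpm under the -/- label. Every value of the second group lay above every value of the first, and these values rest on 66 to 189 reads. The means were 8.23 ± 1.02 and 14.6 ± 3.15 cpm (SD, n = 3 each). On the log2 scale it was higher by 0.80 (95% interval 0.24 to 1.37), with a nominal p of 0.00698 from limma and a two-sided exact permutation p of 0.1, the smallest that 3 against 3 libraries allow. The adjusted p was 0.655, and between 0.419 and 0.999 over the alternatives. The groups also did not overlap with each library centred on its median, with quantile normalisation or with totals made equal after setting mitochondrially encoded genes aside.

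*Alox5*, the enzyme that starts leukotriene synthesis, had 8.69, 3.99 and 10.4 cpm under the +/+ label and 8.99, 20.2 and 14.2 cpm under the -/- label. Here the groups overlapped, since replicate 1 labelled *Cnr1*-/- lay below replicate 3 labelled *Cnr1*+/+, and replicate 2 of each label held the extremes. The means were 7.70 ± 3.32 and 14.5 ± 5.63 cpm (SD, n = 3 each). The log2 difference was 0.93 (95% interval 0.23 to 1.64), with a nominal p of 0.0115 from limma and an exact permutation p of 0.2. The adjusted p was 0.702, and between 0.379 and 0.999 over the alternatives. The SD of *Alox5* between mice was 43.2% of the mean under the +/+ label and 38.9% under the -/- label.

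Neutrophils carry *Alox5*, *Alox5ap* and *Lta4h*, and the library labelled *Cnr1*-/- replicate 2, with the neutrophil markers at 4075 cpm, also held the highest *Alox5* and *Lta4h*. All 10 neutrophil markers and 4 of the 6 monocyte markers were highest there, among the former *S100a9* at 1630 cpm and *Ly6g* at 10.4 cpm. Without this library, an analysis added after seeing the data over the same 6659 genes, 0 of the 9 genes had a nominal p under 0.05. The log2 fold change of *Lta4h* was then 0.66, with the values of the labels still apart, and that of *Alox5* 0.66 (limma adjusted p = 0.999 each). The nominal call of *Alox5* was also lost without the library labelled *Cnr1*+/+ replicate 2, where the log2 fold change was 0.52 (limma adjusted p = 0.881). The part of neutrophil or monocyte RNA in the levels of *Alox5* and *Lta4h* was not tested. In bulk RNA, more cells of a type and more RNA per cell cannot be told apart.

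**Figure D2:**
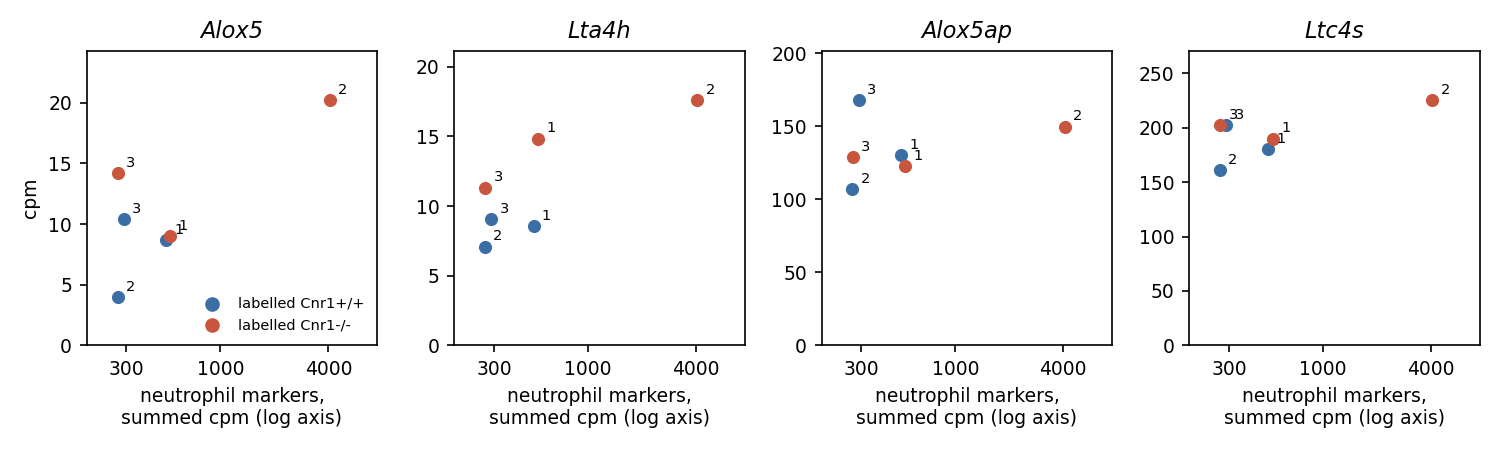
Level of 4 leukotriene synthesis genes (cpm, vertical axes from 0) against the summed cpm of 10 neutrophil markers (log axis) in each library, numbered by replicate and coloured by label. The library labelled *Cnr1*-/- replicate 2 lies alone at 4075 cpm, where *Alox5* (20.2 cpm), *Lta4h* (17.6 cpm) and *Ltc4s* (226 cpm) had their highest values, while *Alox5ap* was highest in *Cnr1*+/+ replicate 3 (168 cpm).

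The other leukotriene genes did not pass. *Alox5ap*, the partner of 5-lipoxygenase, had 130, 107 and 168 cpm under the +/+ label and 123, 150 and 129 cpm under the -/- label, so that the second group lay within the range of the first. Its fold change was 1.00 (95% interval 0.817 to 1.23). *Ltc4s*, which makes leukotriene C4, had 180, 161 and 202 cpm and 190, 226 and 202 cpm, a fold change of 1.14 (95% interval 0.953 to 1.36, limma adjusted p = 0.887). The receptor *Cysltr1* had 30.5, 42.2 and 36.2 cpm and 37.7, 44.4 and 45.7 cpm, a log2 difference of 0.24 (95% interval −0.11 to 0.58, limma adjusted p = 0.900). In both, the groups overlapped. *Pla2g4a*, at the head of both branches, had 18.6, 15.6 and 11.9 cpm and 15.7, 15.0 and 15.0 cpm. Its 3 values labelled *Cnr1*-/- were nearly equal, and the fold change was 1.01 (95% interval 0.724 to 1.41).

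Within the prostanoid branch, *Ptgs1* was the gene whose groups did not overlap, with 355 ± 18.9 cpm (SD, n = 3) under the +/+ label and 398 ± 9.30 cpm (SD, n = 3) under the -/- label. Of the 9 genes 2, *Ptgs1* and *Lta4h*, were higher under the -/- label without overlap, as were 8.85% of all genes tested. The fold change of *Ptgs1* was 1.12 (95% interval 0.957 to 1.32, limma adjusted p = 0.887), and with centring, quantile normalisation or rescaling the groups overlapped. Platelets also carry COX-1 and thromboxane synthase. By the methods the mice were perfused, and the cells were pelleted at low speed through Percoll and selected with CD11b beads. Of 7 platelet markers 4 had a value, and *Ppbp*, *Gp1ba* and *Gp5* had none. The 4 summed to 25.5, 14.7 and 22.7 cpm under the +/+ label. Under the -/- label they summed to 31.7, 30.1 and 31.7 cpm, higher without overlap. These sums were mostly *Gp9*, *Gp1bb* and *Treml1*, with *Itga2b* at or below 0.560 cpm. The part of platelet RNA in the level of *Ptgs1* was not tested. *Hpgds* had 407 ± 39.8 and 391 ± 11.7 cpm (SD, n = 3 each), a fold change of 0.962 (95% interval 0.816 to 1.13). *Tbxas1*, thromboxane synthase, had 88.3, 92.6 and 119 cpm and 118, 93.3 and 93.0 cpm, with 1 high library in each group and a fold change of 1.02 (95% interval 0.829 to 1.25). The signs of *Alox5ap*, *Tbxas1* and *Pla2g4a* turned with centring, quantile normalisation and rescaling.

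COX-2 transcripts were close to the counting limit in these libraries. *Ptgs2* was represented by 1, 1 and 0 reads under the +/+ label and by 4, 11 and 1 reads under the -/- label, and the highest value, 1.03 cpm, belonged to replicate 2. The groups overlapped in the number of reads, and no fold change is given because the first group lay below 3 reads. The 10 genes of the dissociation response, to which *Ptgs2* is related as an immediate early gene, summed to 137 to 152 cpm and 144 to 170 cpm. *Ptgs2* lies 138740 bases from *Pla2g4a* on chromosome 1 with 1 listed gene between them, and the 2 genes differed in level within every library.

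**Figure D3:**
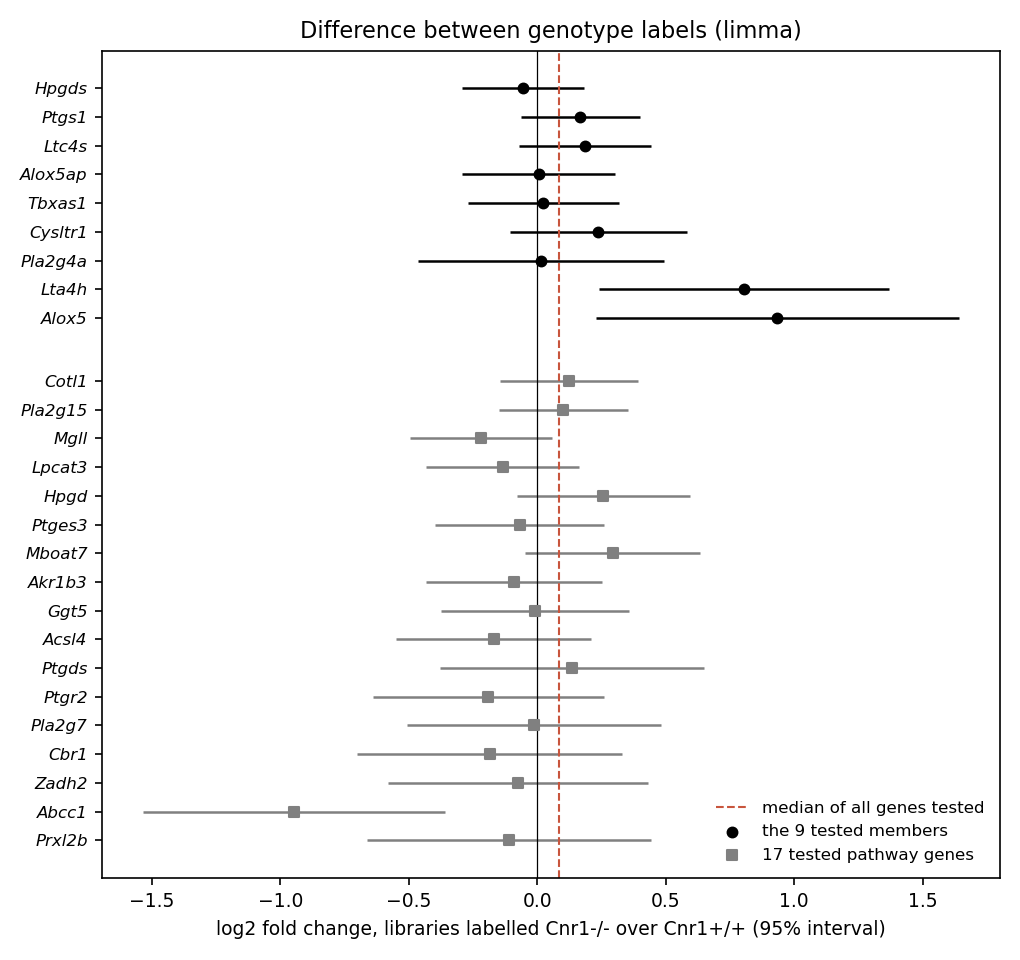
Log2 fold changes (libraries labelled *Cnr1*-/- over *Cnr1*+/+) with 95% intervals from limma for the 9 tested genes (black) and 17 other tested genes of the pathway (grey); the dashed line is the median of all genes tested, 0.084. The intervals of *Lta4h*, *Alox5* and *Abcc1* exclude 0 before adjustment, and all others include it.

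Ratios within a library do not depend on the scaling between libraries. The log2 ratio of *Lta4h* to *Ltc4s*, the 2 enzymes that use leukotriene A4, was −4.38, −4.49 and −4.47 under the +/+ label and −3.67, −3.67 and −4.15 under the -/- label. The log2 ratio of *Alox5ap* to *Alox5* was 3.89, 4.71 and 4.00 and 3.76, 2.88 and 3.17. In both ratios the groups did not overlap (two-sided exact permutation p = 0.1 each, adjusted p = 0.25 over 5 ratios), and *Alox5ap* exceeded *Alox5* in every library. These ratios rest on the same values of *Lta4h* and *Alox5* as the tests above, so they are no separate support. The lowest ratio of *Alox5ap* to *Alox5*, 2.88, belonged to *Cnr1*-/- replicate 2, the library with the most neutrophil marker RNA. The log2 ratio of *Hpgds* to *Tbxas1* differed by −0.079 between the labels and that of the leukotriene enzymes to the prostanoid enzymes by 0.11, with overlapping groups (exact permutation p = 0.7 each). The 10 genes together summed to 1246 ± 76.4 and 1317 ± 52.4 cpm (SD, n = 3 each, exact permutation p = 0.3), a difference whose sign turned with quantile normalisation and with rescaling.

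The relative order of the 2 most abundant genes differed between the labels, which was noticed in the values. *Hpgds* exceeded *Ptgs1* in the 3 libraries of the +/+ label, with log2 ratios of 0.15, 0.28 and 0.17, and lay below it in the 3 labelled *Cnr1*-/-, with −0.01, −0.02 and −0.04. The differences under the -/- label were of similar size to the counting error of the 2 genes, 1.65% and 1.70% of their means. The groups did not overlap (exact permutation p = 0.1, the smallest possible), and the ratio was chosen after its values were seen.

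Of 58 further eicosanoid genes in 8 roles, 43 had a value and 17 were tested. 0 of the 17 were higher and 1 was lower at a nominal p under 0.05 with limma, where 0.931% of all genes were lower with such a p, and 0 passed the adjusted threshold. The gene was *Abcc1*, a transporter that exports leukotriene C4 among other conjugates, known to be lower from earlier results of these data. It had 19.5, 11.7 and 15.7 cpm under the +/+ label and 7.47, 10.5 and 6.20 cpm under the -/- label, without overlap. Its log2 difference was −0.95 (95% interval −1.53 to −0.36, limma adjusted p = 0.531, 0.430 to 0.861 over the alternatives), and *Abcc1* passed the minimum mean only through the libraries labelled *Cnr1*+/+. The median log2 fold change of the 17 was −0.076.

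Among arachidonate release and re-esterification genes 0 of 6 tested passed, and the most abundant, the lysosomal phospholipase *Pla2g15*, had 176 ± 19.5 and 189 ± 8.23 cpm (SD, n = 3 each). Of 2 tested genes around leukotriene C4 conversion and 5-lipoxygenase, 0 passed, *Cotl1*, a 5-lipoxygenase-binding protein, having 204 ± 32.7 and 221 ± 23.6 cpm (SD, n = 3 each). Of the 5 tested terminal prostanoid synthases 0 passed, and *Ptges3*, the cytosolic prostaglandin E synthase and HSP90 co-chaperone p23, had 51.1 ± 9.91 and 48.1 ± 0.737 cpm (SD, n = 3 each). Of the 3 tested inactivation genes 0 passed. *Hpgd*, which oxidises prostaglandins, was the most abundant of these with 51.1 ± 10.1 and 60.6 ± 7.99 cpm (SD, n = 3 each). None of the other lipoxygenases, other leukotriene and lipoxin receptors or prostanoid receptors reached the minimum mean, so *Cysltr1* was the one eicosanoid receptor of these lists above it. Among the untested genes *Mgst3*, a microsomal glutathione transferase, was without overlap. It had 4, 5 and 6 reads under the +/+ label and 13, 13 and 9 reads under the -/- label. The two-sided exact permutation p was 0.1, and the limma p without a filter was 0.236. Of all genes tested, 8.85% were higher under the -/- label without overlap. The share among untested genes was not counted.

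**Figure D4:**
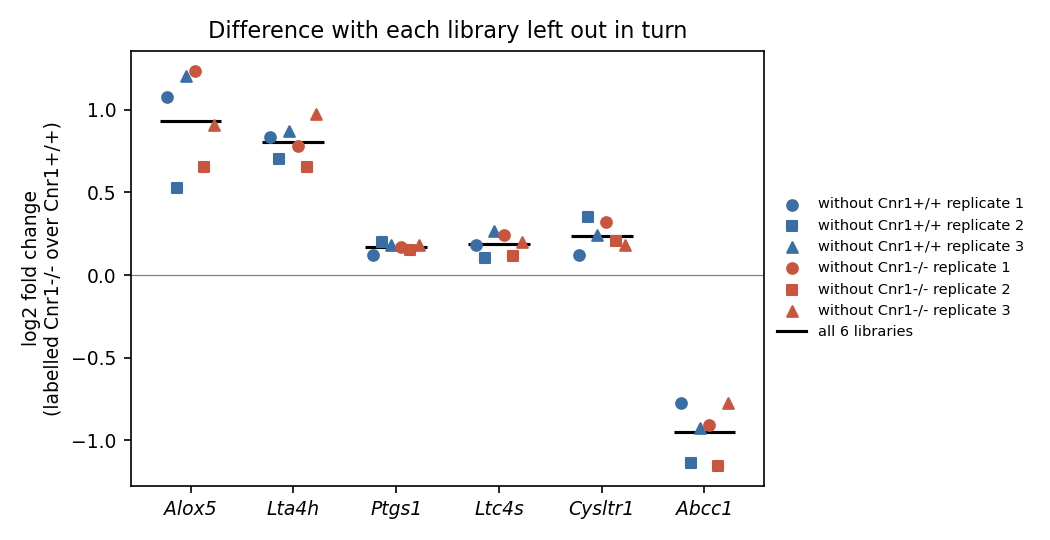
Log2 fold change of 5 of the genes and of *Abcc1* with all 6 libraries (bar) and with each library left out (symbols, blue for libraries labelled *Cnr1*+/+, red for *Cnr1*-/-); *Alox5* without *Cnr1*-/- replicate 2 is from the fit over the same genes. *Lta4h* stays between 0.66 and 0.97, and *Alox5* ranges from 0.52 to 1.24.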

How the data were processed

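RNA of CD11b+ brain cells from 3 *Cnr1*+/+ and 3 *Cnr1*-/- mice, grouped by label, was sequenced from 3′ ends. The authors aligned trimmed reads to mm10 with STAR, quantified genes in Partek Flow and applied TMM; the deposited values are CPM. Per library, 83.4% to 85.5% of nonzero values came out as whole multiples (within 0.02) of what 1 read is worth, so no test for counts was the main test. Depth was derived from that value, and limits from it cover counting error only.

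Labels were compared with limma 3.58.1 in R 4.3.3 (eBayes with trend) on log2 (CPM + 0.1), a mean of at least 10 and no term but genotype, adjusted by Benjamini-Hochberg, and single values with two-sided exact permutation tests. The code was tested on simulated data. Alternatives were 3 other scalings, a minimum mean of 20, no filter, pseudocounts of 1 and 0.0001, eBayes without trend, a replicate block and leaving out each library; limma voom, a fit over the same genes without 1 library and the ratio of *Hpgds* to *Ptgs1* were added after seeing the data. The genes and lists were chosen with earlier results of these data known. Named are the 10 genes, pathway genes with a nominal p under 0.05 or without overlap, the most abundant tested gene of each role, and defining markers. *Anxa1*, *Fpr2*, *Hdc* and *Mgll* were described besides, picked out with their values in view. Gene ends follow GENCODE vM21. The planned ratio of *Ptgs1* to *Ptgs2* is not given, as it rests on the pseudocount. Plots used matplotlib 3.10.9 (Python 3.11.15).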

Additional observations from a re-analysis of the deposited data

How the results depend on the processing

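Of 233 values of the 14 named genes under the alternatives, 208 kept direction and side of the nominal threshold, 4 no longer passed it, 1 newly passed it and 20 turned. The 401 genes with a nominal p under 0.05 became 993 without a filter, 263 with a minimum mean of 20, 251 to 600 with a library left out and 252 over the same genes without *Cnr1*-/- replicate 2. They were 339 higher and 62 lower as deposited, 197 and 178 with centring, 163 and 197 with quantile normalisation and 142 and 212 with rescaling. The 6 genes past the adjusted threshold became 14 without a filter, 0 with centring, quantile normalisation, rescaling or eBayes without trend, and 1 to 24 with a library left out. Of the eicosanoid genes, 2 with a nominal p under 0.05 became 0 with a minimum mean of 20, which left both untested. The 2 became 0 to 3 with a library left out (3 without *Cnr1*+/+ replicate 3, *Ltc4s* joining). Over the same genes without *Cnr1*-/- replicate 2 they became 0. The 1 further pathway gene became 2 without a filter (*Fpr2* joining) and 0 with a minimum mean of 20, which left *Abcc1* untested. It became 2 with centring, quantile normalisation or rescaling (*Mgll* joining) and 1 to 2 with a library left out.

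With centring, quantile normalisation and rescaling, the log2 fold change was −0.069, −0.085 and −0.093 for *Alox5ap*, −0.051, −0.049 and −0.075 for *Tbxas1* and −0.060, −0.053 and −0.084 for *Pla2g4a*. With a library left out it ranged from −0.15 to 0.18 for *Alox5ap* (−0.078 over the same genes without *Cnr1*-/- replicate 2), −0.089 to 0.16 for *Tbxas1*, −0.16 to 0.16 for *Pla2g4a*, −0.12 to 0.017 for *Hpgds* and −0.23 to 0.057 for *Ptges3*. The log2 ratio of *Hpgds* to *Tbxas1* then differed by −0.21 to 0.041 and that of leukotriene to prostanoid enzymes by −0.052 to 0.21. The summed level differed by −7.84 cpm with quantile normalisation and −15.2 cpm with rescaling. The cause was not tested. With the replicate number as a block, 421 genes had a nominal p under 0.05, 2 of them among the 9 eicosanoid genes tested, and 8 rather than 6 passed the adjusted threshold. Libraries of the same number had deviations correlated across genes at −0.0557, −0.0316 and −0.0308, so the number does not pair them, and none of the 14 named genes changed its side of the nominal threshold with the block. At these depths, *Ptgs2* is limited by counting.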

Other observations

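Of the 43 further pathway genes with a value, 10 were highest in the library labelled *Cnr1*-/- replicate 2, and 3 to 10 in each of the other libraries. Of these, 2 low genes are given here as examples with 1 gene from a list of mast cell and basophil markers. *Anxa1*, an anti-inflammatory phospholipid-binding protein that limits arachidonate release, had 26 cpm there and 2.27 to 5.97 cpm in the other 5 libraries. *Fpr2*, the receptor for lipoxin A4 and annexin A1, had 13.3 cpm there and 0.778 to 2.52 cpm elsewhere. *Hdc*, histidine decarboxylase, had 8.21 cpm there and at most 2.03 cpm elsewhere. Of the 8 markers in its list only 2 had a value, and whether mast cells or basophils were present was not tested. *Mgll*, which cuts the endocannabinoid 2-AG to arachidonic acid and so links the CB1 ligand to eicosanoid supply, had 96.1, 83.7 and 94.0 cpm under the +/+ label and 76.2, 85.7 and 73.6 cpm under the -/- label, a log2 difference of −0.22 that did not pass as deposited. All 4 were picked out with their values in view.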
